A study of Mus musculus with 6 samples.

Results

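The mitochondrial oxidative phosphorylation genes considered here are 45 nuclear genes for subunits of complexes I to V. They were listed by gene symbol, and their members are all probe sets that the array's gene table pairs with 1 such gene alone. Of 45037 probe sets on the array, 90 met this rule, and they cover 43 of the 45 genes. Ndufs6 shares its probe set with Ndufs6b, and Cox7b was paired with no probe set by that table, so neither was analysed here. All 43 measured genes, 20 of complex I, 4 of complex II, 7 of complex III, 9 of complex IV and 3 of complex V, passed the filter on low signals, as did 12903 genes in all. Measured values did not enter the rule.

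The samples were hippocampus from 10-week-old mice, whose labels give a C57BL/6 strain background, with 3 Phf8 KO and 3 wild-type (WT) samples and 1 Affymetrix mouse array for each. Phf8 encodes a histone demethylase. The KO allele lacks the exons for the core of its JmjC catalytic domain, which EIIa-Cre, a Cre active in the early embryo, removed throughout the body. Per the study's methods the mutants were made on an SvEv strain and then backcrossed to C57BL/6 J. The KO animals were hemizygous males and the WT animals their littermates. The study's methods describe tissue of 3 KO mice or littermates tested as a sample. Whether an array holds 1 mouse or a pool is therefore not settled, and p-values measure the spread between these samples.

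Oxidative phosphorylation makes most of the ATP of a neuron, and synapses depend on it for ion pumping and vesicle cycling. Complex I takes electrons from NADH and complex II from succinate, ubiquinone carries both to complex III, cytochrome c carries them on to complex IV, and oxygen is reduced there. Complexes I, III and IV pump protons across the inner membrane, and complex V, the ATP synthase, lets them flow back to drive ATP synthesis. Complex I is a large assembly of core subunits, which hold its flavin and iron-sulfur clusters, and accessory subunits around them.

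Phf8 itself was lower in KO hippocampus, with log2 signals of 8.23, 8.55 and 7.99 in KO and of 9.90, 9.66 and 9.73 in WT (difference -1.51, adjusted p = 0.0527 from limma, and 0.00378 without KO replicate 3). The position of its probe set against the deleted exons was not analysed here. The array of KO replicate 3 stood apart, with correlations of 0.925 to 0.940 with the other arrays over all genes, against 0.976 to 0.987 among those. All 11 measured thalamus markers had a positive difference, and their summed linear signal was 7194, 6463 and 38318 on the KO arrays, against 5060 to 5571 on the WT arrays. Tcf7l2, which defines thalamic neurons, had log2 signals of 8.64, 8.44 and 11.50 in KO and of 7.99, 8.13 and 8.28 in WT. Summed signal of 7 markers of CA1 pyramidal cells was 12821, 14231 and 7610 in KO, against 11554 to 12011 in WT, and their median difference of -0.20 was 0.05 without KO replicate 3. Markers of dentate granule cells, such as Prox1, had a median difference of -0.39 (1 of 10 positive), markers of neurons -0.10 (3 of 10) and markers of oligodendrocytes 0.29 (7 of 9). The medians were 0.01 for interneurons, 0.04 for astrocytes, -0.01 for microglia, 0.03 for endothelium, -3.80 for erythrocytes and -0.32 for choroid plexus, which was 0.82 without KO replicate 3. In whole tissue, fewer cells of a type and less RNA per cell cannot be told apart, and the part of these cell types in the results below was not tested.

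Printed here are windows around the start sites of 4 members whose KO and WT arrays did not overlap. Of these, 3 are complex I genes with higher KO signals and 1 is a complex IV gene with lower KO signals. No window is printed for Ndufa2, Ndufa10, Uqcrq, Cyc1 and Cox6c, whose arrays did not overlap either. Each printed window has 300 bases, 250 before and 50 after the RefSeq start, in the GRCm38.p6 assembly, read 5′ to 3′ along the gene. The windows are chr3:32736813-32737112 (+ strand) for Ndufb5, chr15:82354242-82354541 (- strand) for Ndufa6, chr2:90904672-90904971 (- strand) for Ndufs3 and chr5:115348909-115349208 (- strand) for Cox6a1. Capitals mark matches, on either strand, to the letters of factors known to act on respiratory chain genes.
Ndufb5: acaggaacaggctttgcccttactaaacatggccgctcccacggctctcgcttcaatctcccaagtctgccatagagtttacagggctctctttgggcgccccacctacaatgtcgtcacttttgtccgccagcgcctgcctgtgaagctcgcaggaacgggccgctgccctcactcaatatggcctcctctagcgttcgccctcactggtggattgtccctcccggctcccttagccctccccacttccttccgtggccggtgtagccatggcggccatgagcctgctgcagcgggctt
Ndufa6: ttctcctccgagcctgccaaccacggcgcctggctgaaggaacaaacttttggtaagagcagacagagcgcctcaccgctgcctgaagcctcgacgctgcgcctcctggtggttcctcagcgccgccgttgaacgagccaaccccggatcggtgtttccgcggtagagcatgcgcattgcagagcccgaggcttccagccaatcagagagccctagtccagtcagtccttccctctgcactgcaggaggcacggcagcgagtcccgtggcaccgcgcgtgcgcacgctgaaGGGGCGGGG
Ndufs3: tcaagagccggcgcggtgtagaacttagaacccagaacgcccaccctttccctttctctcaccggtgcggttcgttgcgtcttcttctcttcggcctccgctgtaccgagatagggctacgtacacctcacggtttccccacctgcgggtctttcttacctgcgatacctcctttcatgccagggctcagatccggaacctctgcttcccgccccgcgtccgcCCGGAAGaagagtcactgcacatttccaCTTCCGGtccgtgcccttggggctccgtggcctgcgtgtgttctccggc
Cox6a1: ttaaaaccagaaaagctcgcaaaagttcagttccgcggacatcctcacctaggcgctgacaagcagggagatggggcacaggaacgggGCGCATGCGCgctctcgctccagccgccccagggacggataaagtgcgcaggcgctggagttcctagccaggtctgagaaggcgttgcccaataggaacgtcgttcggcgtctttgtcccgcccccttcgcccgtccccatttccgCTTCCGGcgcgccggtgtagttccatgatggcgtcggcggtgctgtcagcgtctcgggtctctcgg

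The letters searched were GCGCATGCG for NRF1, CCGGAAG for ETS factors such as GABP, TCAAGGTCA for the estrogen-related receptors, AAGATGGC for YY1 and GGGGCGGGG for SP1. Positions count the start as 1 with no 0. Cox6a1 held the NRF1 letters on both strands at -162 and -161, overlapping each other, and the ETS letters at -16. Ndufs3 held the ETS letters at -27 and again at 2, Ndufa6 held the SP1 letters at 42, and the Ndufb5 window held none of these letters. Windows of the same length were found for 32 of the 43 members. Of these 32, the ETS letters were in 8 (25%, against 12.9% of all 17492 protein-coding genes), those of YY1 in 4 (12.5%, against 3.57%), those of NRF1 in 3 (9.38%, against 2.61%), those of the estrogen-related receptors in 1 (3.12%, against 0.377%) and those of SP1 in 5 (15.6%, against 17.3%). A match describes the letters only.

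No subunit gene passed the test across all genes. At an adjusted p of 0.05 in limma, 0 of 43 members were called, where 8 of 12903 genes were (0.062%). At an unadjusted p under 0.05, 3 members were higher in KO (Ndufa2, Ndufb5 and Ndufa6, against 4.69% of all genes) and 1 was lower (Cox6a1, against 2.79%), 4 in all beside 7.48% of all genes. The difference was positive for 31 members and negative for 12, where 51.9% of all genes had a positive one. The median difference was 0.03 on the log2 scale, against 0.01 over all genes. With array weights, the member median was -0.0139. The KO arrays lay above all WT arrays for 7 members, where 9.56% of all genes do, and below them for 2, where 7.13% do. After each array was centred on its own median, these counts were 1 and 1, beside 7.96% and 5.65% of all genes. No member differed by 1.5-fold or more, as 6.18% of all genes did.

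The intervals give a range for the KO minus WT difference of each gene in this fit. The fit takes 1 spread for both groups, and the intervals are not adjusted for the number of genes. The 95% confidence interval of the difference lay within 1.5-fold either way (0.58 on the log2 scale) for 40 of 43 members, against 46.8% of all genes. The other 3 were Ndufa2, whose interval ran from 0.22 to 0.59, Uqcrc1, from -0.42 to 1.01, and Cox7c, from -0.59 to 0.45. The SD of a member's signals had a median of 0.11 across the KO arrays, against 0.037 across the WT arrays. The KO SD was the larger one for 39 members (90.7%), as it was for 80.0% of all genes. The members are bright, with a median WT mean of 12.60 against 9.19 over all genes. Their median WT SD of 0.037 stood against 0.11 over all genes. The 46.8%, like the share of all genes at 1.5-fold or more, was not matched for signal level.

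**Figure D1:**
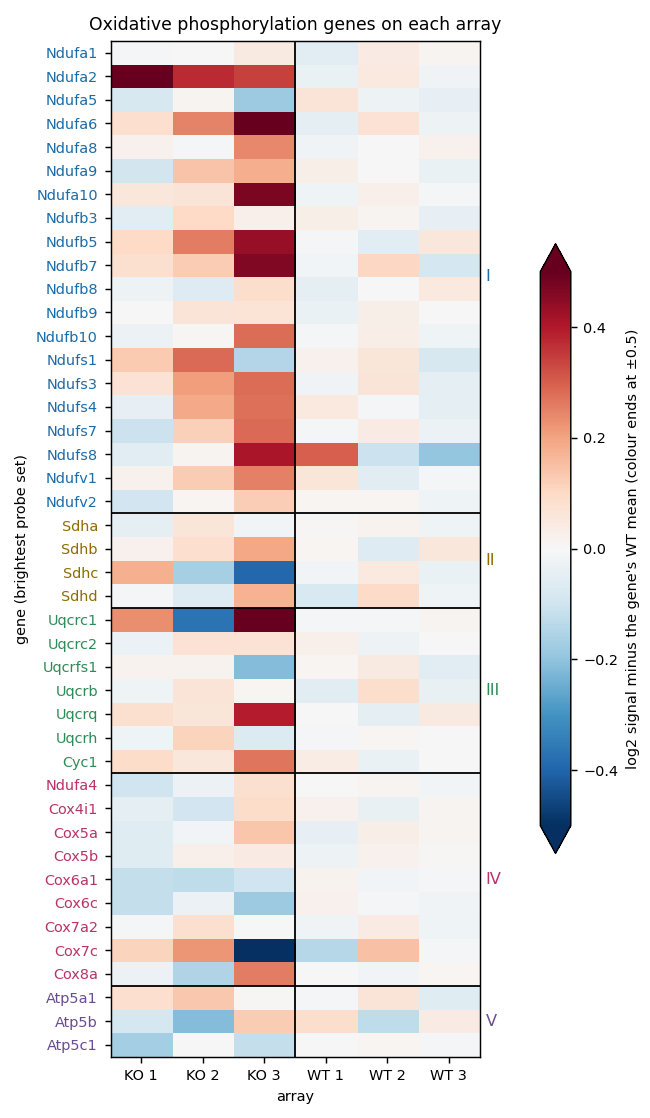
Log2 signal of the 43 genes (rows, by complex) on each array (columns, KO left of WT), minus the WT mean of the gene, in colour. Ndufa2 is high on all 3 KO arrays, most complex I genes are highest on KO replicate 3, and Cox6a1 is low on all 3 KO arrays.

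Complex I had the most positive differences. Of its 20 genes, 18 were positive, with a median of 0.09 and a range of -0.08 to 0.41. KO and WT arrays did not overlap for 5 of them, all higher in KO, where 9.56% of all genes lay higher without overlap. After each array was centred on its own median, 1 of the 20 did so, beside 7.96% of all genes. No complex I gene was called.

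Among the accessory subunits, Ndufa2, a small subunit of the matrix arm, had the smallest p of all members. Its log2 signal was 12.74, 12.61 and 12.58 on the KO arrays, against 12.20, 12.29 and 12.22 on the WT arrays. All KO arrays, replicate 3 the lowest among them, lay above the highest WT array. The means were 12.64 ± 0.08 in KO and 12.24 ± 0.04 in WT (SD, n = 3 each). The difference was 0.41 (standard error 0.08, adjusted p = 0.355 in limma). An exact permutation test of 3 arrays against 3 cannot go below 0.1, and the number of arrays limits the precision.

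Ndufb5, a subunit of the membrane arm, had 12.70, 12.86 and 13.04 in KO and 12.60, 12.55 and 12.66 in WT. The groups did not overlap, although KO replicate 1 lay close to the highest WT array. Its difference was 0.26 (standard error 0.10, adjusted p = 0.638 in limma). Ndufa6, a matrix arm subunit that binds the mitochondrial acyl carrier protein, had 12.15, 12.31 and 12.59 in KO and 12.02, 12.13 and 12.04 in WT. KO replicate 3 was well above the rest and KO replicate 1 barely above WT replicate 2, for a difference of 0.29 (standard error 0.12, adjusted p = 0.659 in limma).

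Ndufa10, a subunit related to nucleoside kinases, had 12.54, 12.55 and 12.95 in KO and 12.46, 12.51 and 12.48 in WT (difference 0.20). Here too the groups did not overlap, and the size of the difference came mostly from KO replicate 3. Ndufb7 of the membrane arm had 12.07, 12.11 and 12.45 in KO and 11.97, 12.09 and 11.90 in WT (difference 0.22). KO replicate 1 lay just below WT replicate 2, so these groups overlapped. Ndufs4, a subunit whose loss causes a Leigh-like brain disease in mice, had 11.10, 11.33 and 11.42 in KO and 11.19, 11.13 and 11.09 in WT (difference 0.14).

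The other accessory subunits differed less. Ndufb10, Ndufa8, Ndufa9, Ndufb9, Ndufb3 and the X-linked Ndufa1 had differences of 0.09, 0.08, 0.08, 0.04, 0.03 and 0.01. Ndufb8 was almost equal in both groups, with 12.84, 12.79 and 12.95 in KO and 12.81, 12.86 and 12.91 in WT. Ndufa5 was the accessory subunit with the lowest difference, -0.08, with 12.55, 12.64 and 12.45 in KO and 12.69, 12.61 and 12.59 in WT. Of 14 measured accessory subunits, 12 were positive, and the median was 0.09.

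All 6 core subunits had a positive difference, with a median of 0.11. Ndufs3, which packs beside the iron-sulfur subunits of the peripheral arm, had 12.47, 12.60 and 12.67 in KO and 12.37, 12.46 and 12.34 in WT. The groups were apart by a narrow gap between KO replicate 1 and WT replicate 2, and the difference was 0.19 (standard error 0.09, adjusted p = 0.669 in limma). Ndufv1, which binds NADH and the flavin, had 12.32, 12.43 and 12.55 in KO and 12.36, 12.25 and 12.29 in WT (difference 0.13), and KO replicate 1 fell among the WT arrays. Its partner Ndufv2 was nearly level, with a difference of 0.01.

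Ndufs7 and Ndufs8, which carry the last iron-sulfur clusters before ubiquinone, had differences of 0.10 and 0.12. Ndufs7 had 12.003, 12.229 and 12.393 in KO and 12.10, 12.15 and 12.08 in WT, so that KO replicate 1 was the lowest of all 6 arrays and KO replicate 3 the highest. Ndufs8 varied as much in WT as in KO, with 12.46, 12.52 and 12.92 in KO and 12.81, 12.40 and 12.32 in WT. Ndufs1, the largest core subunit, went the other way on KO replicate 3, with 12.05, 12.20 and 11.77 in KO and 11.94, 11.98 and 11.83 in WT.

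**Figure D2:**
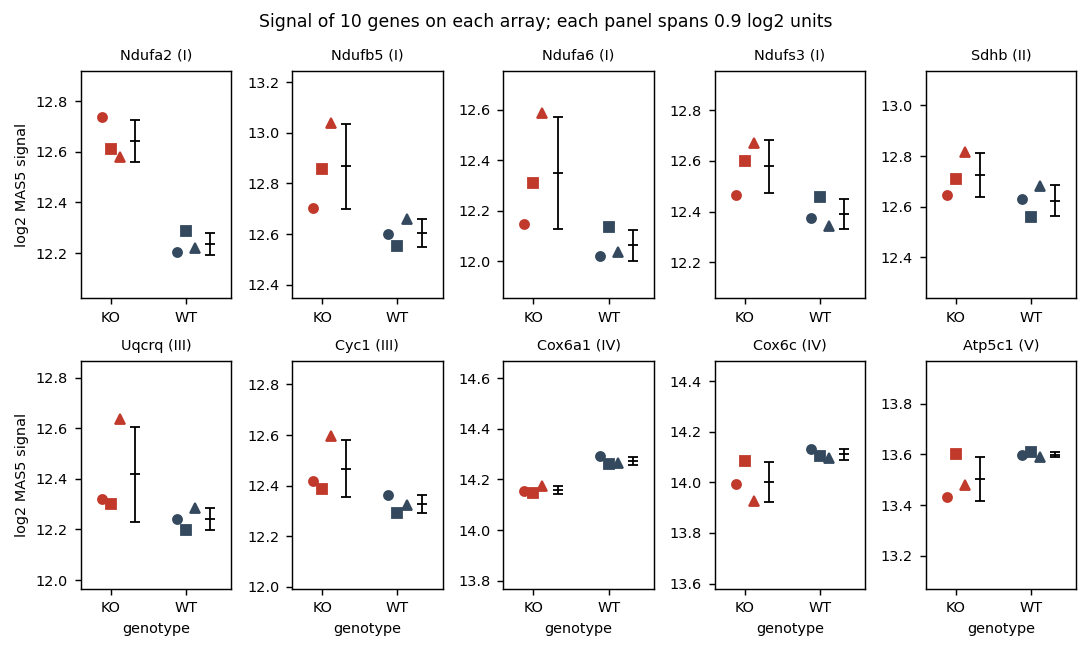
Log2 MAS5 signal (y axis) of 10 members, named in each complex by p and by lack of overlap, on each KO and WT array (circle, square and triangle for replicates 1, 2 and 3), with group means and SDs drawn beside the points. Ndufa2 has its KO arrays between 12.58 and 12.74 and its WT arrays between 12.20 and 12.29, and Cox6a1 has its KO arrays between 14.15 and 14.17 and its WT arrays between 14.26 and 14.29.

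Complex II, which is also the succinate dehydrogenase of the citric acid cycle, was close to level. The median over its 4 genes was 0.02, with 2 positive and 2 negative. Sdha, the flavin subunit, had 12.65, 12.76 and 12.68 in KO and 12.70, 12.71 and 12.67 in WT, which is no visible shift. Sdhb, the iron-sulfur subunit, had 12.65, 12.71 and 12.82 in KO and 12.63, 12.56 and 12.68 in WT (difference 0.10, adjusted p = 0.741 in limma), with overlapping groups.

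The membrane anchors were less even. Sdhd had 11.44, 11.38 and 11.62 in KO and 11.37, 11.54 and 11.43 in WT (difference 0.03). Sdhc had 11.23, 10.88 and 10.66 in KO and 11.03, 11.10 and 11.01 in WT (difference -0.13), with KO replicate 1 above and the other KO arrays below all WT arrays. A dimmer probe set of Sdhc had 10.11, 9.86 and 9.55 in KO and 10.26, 10.26 and 10.21 in WT, without overlap (difference -0.40, unadjusted p = 0.0398 and adjusted p = 0.782 in limma over 27408 probe sets).

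Complex III had 6 positive genes of 7 and a median of 0.04. Cyc1, the cytochrome that passes electrons to cytochrome c, had 12.42, 12.39 and 12.59 in KO and 12.37, 12.29 and 12.32 in WT (difference 0.14, adjusted p = 0.700 in limma). Uqcrq, a small membrane subunit, had 12.32, 12.30 and 12.63 in KO and 12.24, 12.20 and 12.29 in WT (difference 0.18, adjusted p = 0.696 in limma). For both genes the groups did not overlap, by a small margin on KO replicates 1 and 2 and a large one on KO replicate 3.

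Uqcrc1, a core protein of complex III, had the widest KO spread of all members. It had 11.77, 11.17 and 12.56 in KO, an SD of 0.70, and 11.53, 11.53 and 11.56 in WT, an SD of 0.013. One KO array lay below and the others above the WT arrays, so the difference of 0.30 was well inside the KO spread (adjusted p = 0.801 in limma). Its partner Uqcrc2 differed by 0.04, Uqcrb by 0.02 and the hinge protein Uqcrh by 0.01. Uqcrfs1, the Rieske iron-sulfur protein, was the only negative gene of the complex, with 12.35, 12.35 and 12.12 in KO and 12.35, 12.38 and 12.28 in WT (difference -0.06).

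Complex IV, the cytochrome c oxidase, had 4 positive and 5 negative genes and a median of -0.02, but 6 positive genes and a median of 0.04 after quantile normalization between arrays. Cox6a1, a subunit near its dimer interface, had 14.15, 14.15 and 14.17 in KO and 14.29, 14.26 and 14.27 in WT. Both groups were tight and apart, with a difference of -0.11 (standard error 0.05, adjusted p = 0.659 in limma). Of 63 genes with a WT mean log2 signal of 14 or more, the median difference was also -0.11, and 11.1% had a positive one. Both Cox6a1 and Cox6c are among these bright genes, and after quantile normalization their differences were -0.04 and -0.05. The second probe set of Cox6a1 had 13.53, 13.57 and 13.67 in KO and 13.66, 13.62 and 13.65 in WT, with overlap (difference -0.05).

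Cox6c, a small membrane subunit, had 13.99, 14.08 and 13.93 in KO and 14.13, 14.10 and 14.09 in WT (difference -0.11, adjusted p = 0.682 in limma). Its second probe set had 13.12, 13.15 and 13.08 in KO and 13.32, 13.24 and 13.38 in WT (difference -0.20, adjusted p = 0.776 in limma over probe sets). Both probe sets had all KO arrays below all WT arrays. Most other subunits were level, with differences of 0.02 for Cox5a, 0.00328 for Cox5b, 0.02 for Cox7a2, 0.03 for Cox8a and -0.02 for Cox4i1, the widespread form of subunit IV. Ndufa4, long counted with complex I and now placed in complex IV, also had -0.02, with 13.49, 13.56 and 13.67 in KO and 13.60, 13.60 and 13.58 in WT. Cox7c was measured only by dim probe sets and had 8.48, 8.59 and 7.82 in KO and 8.22, 8.51 and 8.36 in WT (difference -0.07).

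Complex V was represented by 3 subunits of the catalytic F1 head, with a median of -0.06. Atp5a1, the alpha subunit, had 13.33, 13.38 and 13.25 in KO and 13.24, 13.31 and 13.18 in WT (difference 0.08). Atp5b, the catalytic beta subunit, had 13.67, 13.54 and 13.89 in KO and 13.85, 13.63 and 13.80 in WT (difference -0.06). Atp5c1, the gamma subunit that turns inside the head, had 13.43, 13.60 and 13.48 in KO and 13.60, 13.61 and 13.59 in WT (difference -0.10, adjusted p = 0.727 in limma). KO replicate 2 reached the WT level for this gene and the other KO arrays did not.

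Set side by side, the complexes differed most on KO replicate 3. Relative to the WT mean of each gene, the median deviation of the complex I genes was -0.00492, 0.11 and 0.26 on KO replicates 1, 2 and 3, against -0.02 to 0.02 on the WT arrays. For complex II it was 0.01, -0.00159 and 0.08 on the KO arrays, and for complex III 0.02, 0.06 and 0.07. For complex IV it was -0.06, -0.03 and 0.04, and for complex V -0.09, 0.00164 and 0.01. In each complex KO replicate 1 lay below KO replicate 3. No test of a difference between complexes was made, since the genes of a complex are not replicates.

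**Figure D3:**
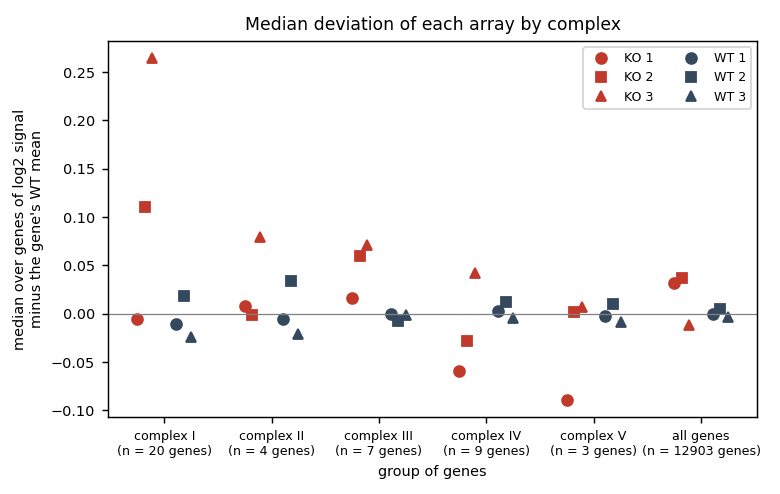
Median over the genes of each complex, and over all 12903 genes, of the log2 signal minus the gene's WT mean (y axis), for each KO array (red) and each WT array (blue). Complex I reaches 0.26 on KO replicate 3 and 0.11 on KO replicate 2 but is near 0 on KO replicate 1, while complexes IV and V lie at -0.06 and -0.09 on KO replicate 1.

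KO replicate 3 held the highest of the 6 signals for 27 of the 43 members (62.8%), against 32.8% of all genes, and for 16 of the 20 complex I genes (80%). It held the lowest for 7 members (16.3%), against 36.4% of all genes. These members are bright on the array, and bright genes as a whole went the other way there. Of 672 genes with a WT mean log2 signal from 12 to 13, among them 21 members and 15 of complex I, the median deviation was -0.05, 0.05 and -0.15 on KO replicates 1, 2 and 3, and 37.8% had a positive difference. Of 281 genes from 13 to 14, among them 11 members, the medians were -0.06, 0.00144 and -0.09, and 30.6% were positive. On KO replicate 3, then, the complex I median of 0.26 stood beside an all-gene median of -0.15 at the signal level that most of its genes have. The thalamus and CA1 marker values given above moved on the same array, and their part in these values was not tested.

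**Figure D4:**
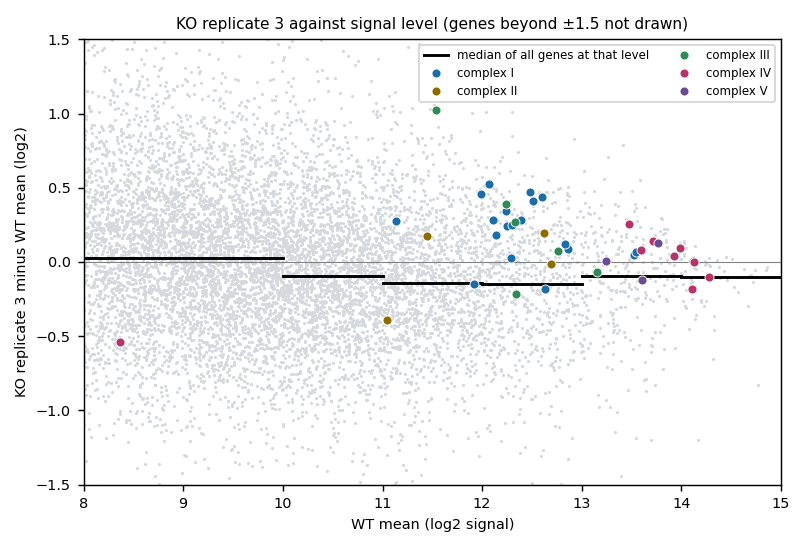
Log2 signal on KO replicate 3 minus the gene's WT mean (y axis) against the WT mean (x axis) for all genes (grey) and the members (coloured by complex), with the median of all genes in each range of level as a black line. Most complex I genes lie above 0, above the line at -0.15, and 6 of the 9 complex IV genes lie between -0.10 and 0.14 while Cox8a is at 0.26, Cox6c at -0.18 and Cox7c at -0.54.

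Without KO replicate 3, the complex I median was smaller and the Ndufa2 difference was not. Of the 43 members, 26 had a positive difference (all genes 55.7%), with a median of 0.02. Complex I had 14 of 20 positive and a median of 0.03. Ndufa2 then had a difference of 0.44 and was the only member called (adjusted p = 0.0390 in limma, where 53 genes or 0.411% were called). Ndufs1 had 0.21, Ndufb5 0.18, Ndufa6 0.17 and Ndufs3 0.14 there, all without overlap of the remaining KO arrays with WT, and none of these 4 was called. Without that array, 18.8% of all genes had both remaining KO arrays above all WT arrays.

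Complex IV had a median of -0.07 without that array. Only Cox7a2 and Cox7c were positive, and 5 of its 9 genes, Ndufa4, Cox4i1, Cox6a1, Cox6c and Cox8a, had both remaining KO arrays below all WT arrays, where 12.8% of all genes do. The 12.8% covers genes of all signal levels, and the share among genes as bright as these 5 was not computed. For 281 genes with a WT mean from 13 to 14, the median deviation was -0.06 and 0.00144 on KO replicates 1 and 2. For 63 genes at 14 or more it was -0.08 and -0.10. Without KO replicate 3, Cox6a1 had -0.12 and Cox8a -0.09. Complex V had a median of -0.08, complex III 0.02 and complex II 0.01. The difference of Uqcrc1 was -0.07 without KO replicate 3, against 0.30 with it, so its direction rested on that array.

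**Figure D5:**
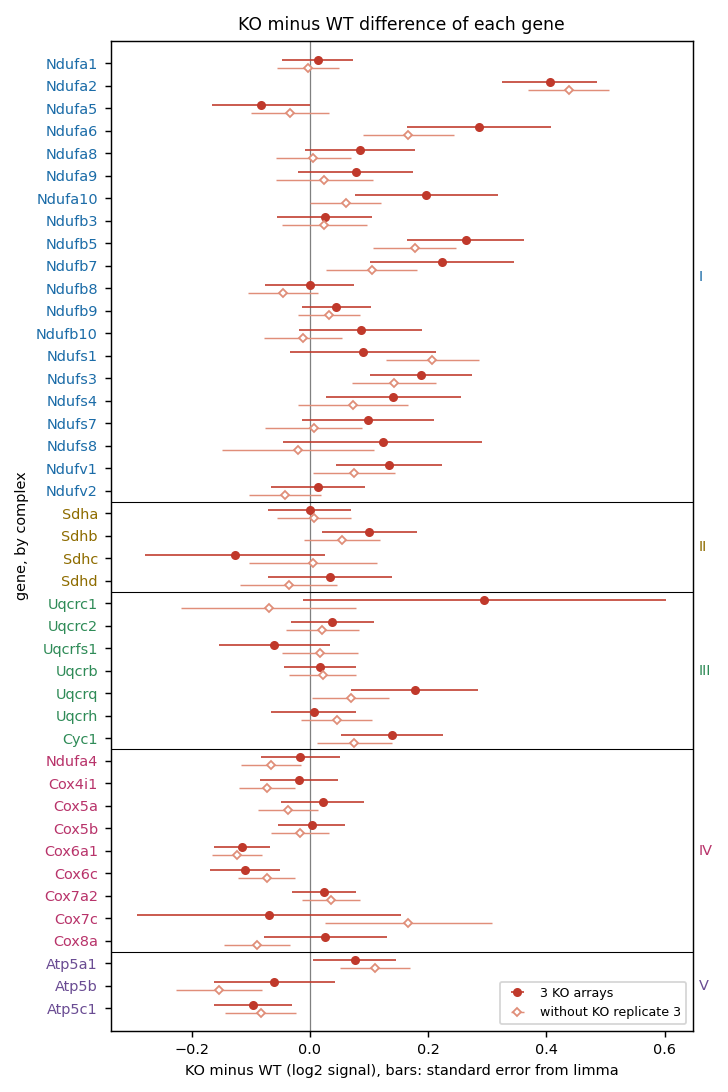
KO minus WT difference in log2 signal (x axis) of each member, with the standard error from limma as a bar, for all 3 KO arrays (filled) and without KO replicate 3 (open). Ndufa2 is at 0.41 and 0.44, most other complex I genes move towards 0 without that array, and Cox6a1 is at -0.11 and -0.12.

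Different probe sets of a gene did not always go the same way. Of the 90 probe sets, 83 were above the filter, with 54 positive and 29 negative differences, and none was called over all 27408 kept probe sets, where 6 were (0.0219%). The other 7 were dim on all arrays, with log2 signals of 0.950 to 6.03. The smallest adjusted p was 0.576, again for Ndufa2, whose single probe set is its only measure. Of 26 genes with more than 1 kept probe set, 17 had a single sign and 9 had both, among them Ndufs8, Cox5b and Uqcrq. The probe sets of Ndufb7 gave 0.22 and 0.22, those of Ndufb5 0.26 and 0.17 and those of Ndufa10 0.20 and 0.17. The groups did not overlap for the dimmer probe set of Ndufb7, but they did for those of Ndufb5 and Ndufa10. The one of Ndufb5 had 12.49, 12.66 and 12.81 in KO and 12.52, 12.47 and 12.47 in WT. The one of Ndufa10 had 8.05, 8.16 and 7.56 in KO and 7.44, 8.24 and 7.60 in WT, with KO replicate 3 the lowest KO array. Ndufs8 had 6 kept probe sets, 5 of them positive up to 0.28 and a dim one at -0.23, and Cox5b had 5, which ran from -0.16 to 0.50. Of the 83, 13 are of a type with probes that can bind unrelated transcripts (suffix x_at), and 8 of a type whose probes are shared by several transcripts (suffix s_at), among them the probe set of Ndufa2.

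Of 35 further nuclear subunits, 24 were positive with a median of 0.06, and none was called. Among 13 of complex I, 12 were positive with a median of 0.08. Their median deviation was 0.04, 0.07 and 0.18 on KO replicates 1, 2 and 3. Without KO replicate 3, 12 were positive and the median was 0.02. Ndufs5, an accessory subunit that faces the intermembrane space, had 12.66, 12.68 and 12.93 in KO and 12.40, 12.54 and 12.42 in WT (difference 0.30, adjusted p = 0.589 in limma), without overlap. Ndufa13 of complex I differed by 0.13, and Uqcr10 and Uqcr11 of complex III by 0.06 and 0.05. Complex IV had 3 positive of 7 and complex V had 7 of 13, with medians of -0.01 and 0.05, and the complex IV median was 0.14 without KO replicate 3. The muscle isoform genes Cox6a2 and Cox8b are given here because of their values. Cox6a2 had 8.24, 8.70 and 9.62 in KO and 8.23, 8.19 and 8.15 in WT (difference 0.66), and Cox8b had 8.13, 8.34 and 4.98 in KO and 8.06, 8.92 and 7.32 in WT (difference -0.95). These were the only 2 of the 35 that differed by 1.5-fold or more, and KO replicate 3 was the most extreme array for both. The 1 mitochondrially encoded subunit measured, ND5 of complex I, had 14.83, 14.72 and 14.82 in KO and 14.84, 14.82 and 14.91 in WT (difference -0.06).

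Of 43 assembly factors, which build the complexes without staying in them, 28 were positive (all genes 51.9%), with a median of 0.06. An unadjusted p under 0.05 in limma was found for 5, all higher in KO (all genes 4.69%), and none was called. Without KO replicate 3, 24 were positive (all genes 55.7%), the median was 0.02, and 2 had such a p. Nubpl, which inserts iron-sulfur clusters into complex I, had 8.45, 8.48 and 8.71 in KO and 8.03, 7.93 and 7.98 in WT (difference 0.57, adjusted p = 0.531 in limma), and Coa6, a copper delivery factor of complex IV, differed by 0.42. Both were higher on every KO array than on any WT array. The 8 genes for cytochrome c, ADP/ATP and phosphate carriers, porins and the ATP synthase inhibitor Atpif1 had a median of 0.07 with 5 positive. The 15 genes of the citric acid cycle and pyruvate dehydrogenase had 0.07 with 9 positive. The 13 of glycolysis had 0.04 with 7 positive, or -0.05 with 4 positive without KO replicate 3. Of 14 regulators of mitochondrial biogenesis, 7 were positive, and the median was -0.01, or 0.00558 without KO replicate 3. The coactivator gene Ppargc1b had a difference of 0.44 (adjusted p = 0.659 in limma), with KO replicate 1 just below WT replicate 2. Gabpa, the DNA-binding subunit of GABP, had 9.87, 10.17 and 9.65 in KO and 10.27, 10.23 and 10.21 in WT (difference -0.33, adjusted p = 0.664 in limma), with all KO arrays below WT.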

How the data were processed

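Total RNA of hippocampus was measured on 6 Affymetrix arrays, 3 Phf8 KO and 3 WT. The deposited values are log2 MAS5 signals, 1 for each probe set, which the authors scaled between arrays. Tools named in the submitters' processing notes are MAS5 and affy, without versions, and the study's methods name GeneSpring and a filter on Absent calls. No detection calls were used here. All value columns were assigned to a sample through their titles.

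To stand in for the Absent filter, a probe set had to lie above the 40th percentile of its array on 3 or more of the 6 arrays, which left 27408 of 45037. A gene table pairs 34945 probe sets with 1 gene and 932 with several, and 9160 are not listed there. The brightest kept probe set that names 1 gene alone stood for that gene, which gave 12903 genes. For KO minus WT, limma 3.58.1 (R 4.3.3) was run with lmFit and eBayes with trend and no covariate. Benjamini-Hochberg adjustment covered all genes, or all kept probe sets where probe sets are compared. The procedure was tested on simulated data. Signals have no molecule count behind them, and precision is limited by the number of arrays.

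The members and the lists of other subunits, assembly factors, carriers, citric acid cycle, regulators, glycolysis and cell type markers were chosen with earlier results of these data known. Named in the text were Phf8, up to 4 members of each complex with the smallest p among those whose groups do not overlap (or the one with the smallest p), up to 2 genes of each other list, and any member where its complex is described. Of the markers, Tcf7l2 and Prox1 are named beside their lists and were chosen after their values were seen. Lists are described by counts and medians beside all genes, with no test. Start site windows came from RefSeq.

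The choices varied were the normalization (quantile, or centring on the median), the filter (none, the 20th or the 60th percentile), adding 16 signal units before log2 was taken, the variance trend, array weights, a block for the replicate number, the mean of a gene's kept probe sets, Ndufa4 counted with complex I, and each array left out. Array weights by the gene-by-gene method were added after seeing the data.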

Additional observations from a re-analysis of the deposited data

How the results depend on the processing

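Member genes called at an adjusted p of 0.05 in limma numbered 0 in the fit as reported. They numbered 5 with array weights, 1 with gene-by-gene array weights and 0 to 1 when each array was left out, the 1 being Ndufa2 without KO replicate 3. The array weights stopped before convergence and gave KO replicates 1, 2 and 3 weights of 18.1, 0.282 and 0.0951, so that KO replicate 1 decided those values, while the gene-by-gene weights, chosen after seeing the data, were 2.21, 0.542 and 0.144. With these 2 weightings 14 and 1 member probe sets were called, and 19 members were positive with array weights. Over all genes the count of 8 became 5 with median centring, 0 without a variance trend, 3337 with array weights, 115 with gene-by-gene weights, 4 with the replicate number as a block, and 0 to 53 when each array was left out (53 without KO replicate 3, 0 or 1 without any other array). Replicate numbers were not stated to pair the samples, so the block has no stated basis in the design, and it changed no member's call. The correlation of same-numbered deviations was -0.04, 0.07 and 0.13, against -0.16 to 0.20 for pairs with different numbers. With so few arrays these values cannot show or exclude a pairing. The median over all members became -0.0139 with array weights, 0.000494 with gene-by-gene weights, 0.0821 with quantile normalization, 0.0650 with the mean of kept probe sets and 0.0171 to 0.0668 when each array was left out. The complex II median became -0.0642 with the mean of kept probe sets, -0.000604 with median centring and -0.000719 to 0.0388 when each array was left out, negative without WT replicate 1. The complex III median became 0.0879 with quantile normalization, 0.0102 with array weights, 0.00229 with gene-by-gene weights, 0.0816 with the mean of kept probe sets and 0.0209 to 0.0709 when each array was left out. The complex IV median became 0.0412 with quantile normalization and -0.0652 to 0.0253 when each array was left out, positive without KO replicate 1 and without WT replicate 2. The complex V median became -0.101 with array weights, -0.111 with gene-by-gene weights and -0.0906 to 0.0190 when each array was left out, the positive value being without KO replicate 2. Uqcrq reversed to -0.0356 with the mean of its kept probe sets. Ndufa2 had adjusted p-values from 9.73e-05 with array weights upward and was past 0.05 also with gene-by-gene weights (0.0104) and without KO replicate 3 (0.0390). Cox6a1, Cox6c and Atp5c1 passed with array weights only. The median of complex I stayed positive in every alternative run, from 0.00331 with array weights to 0.176 without KO replicate 1, and was 0.0285 without KO replicate 3. The Phf8 difference was negative in all of them, with adjusted p-values in limma of 3.88e-06 to 0.494. It was past 0.05 with the filter at the 60th percentile (0.0453), with the offset (0.0414), with array weights, with gene-by-gene weights (0.000493) and without KO replicate 3 (0.00378).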
